A study of Mus musculus with 24 samples.

Results

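Homeostatic microglia genes are the transcripts by which resting microglia are recognised, and 10 of them, chosen by symbol, were followed here in mouse cerebellum: Cx3cr1, P2ry12, Gpr34, Csf1r, Itgam, Siglech, Tmem119, Aif1, Laptm5 and Ctss. Each symbol matched 1 of the 37991 Ensembl gene identifiers in the count files, and all 10 were among the 15292 genes that passed the low-count filter. Cerebellum came from male mice of the inbred strain C57BL/6J aged 7 weeks (young adult) or 79 weeks (aged), with 2 RNA libraries per age and no treatment or engineered allele named in the labels. The labels number the 2 libraries of an age as replicates but do not say that they came from different mice. The p-values may thus not measure the spread between mice. The genomic libraries of the series, made to measure modified cytosines, were not analysed here.

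Microglia are the resident macrophages of the brain. They arise from yolk sac progenitors, depend on signalling through the receptor Csf1r for their survival, and scan the tissue with motile processes that are steered by purinergic and fractalkine receptors. Their resting gene programme is set by the transcription factor PU.1, the product of Spi1, and by TGF-beta from neighbouring cells. In disease models several of its genes, P2ry12 and Tmem119 among them, are known to fall while genes of lysosomes and lipid handling rise. Whole cerebellum is mostly neurons, so in these bulk libraries more microglia and more RNA of a gene per microglial cell cannot be told apart.

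The 4 libraries held 16367656 to 22826993 gene counts, and the 10 genes together took 1451 and 2068 reads at 7 weeks and 2894 and 4325 reads at 79 weeks. A count of 0 allowed a level of up to 0.131 to 0.183 CPM (read counts relative to the scaled library size), a limit that covers counting error only. Markers of granule neurons (Gabra6, 591 to 888 CPM) and Purkinje cells (Pcp2, 351 to 386 CPM) were present in each library, as the cerebellar label requires. The 79-week replicate 1 stood apart by markers of choroid plexus, the tissue that secretes cerebrospinal fluid: the 12 markers summed to 5428 CPM there, against 18.1 to 41.7 CPM in the other 3 libraries.

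All 10 genes had higher levels in each 79-week library than in either 7-week library. Summed over the 10 genes, the level was 90.4 and 99.8 CPM at 7 weeks and 149.9 and 186.9 CPM at 79 weeks, or 95.1 ± 6.64 against 168 ± 26.2 CPM (mean ± SD, n = 2 per age), a ratio of 1.77. Of all genes tested, 29.1% were higher at 79 weeks without overlap between the ages. In edgeR's quasi-likelihood test, with p-values adjusted by Benjamini-Hochberg across the whole table, Ctss, Laptm5, Cx3cr1, Csf1r and Itgam rose, 0 fell, and the other 5 did not pass an adjusted p of 0.05. Over all genes tested 4.17% were called higher and 4.68% lower. The median log2 fold change of the 10 genes was 0.76, against 0.01 over all genes tested.

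**Figure D1:**
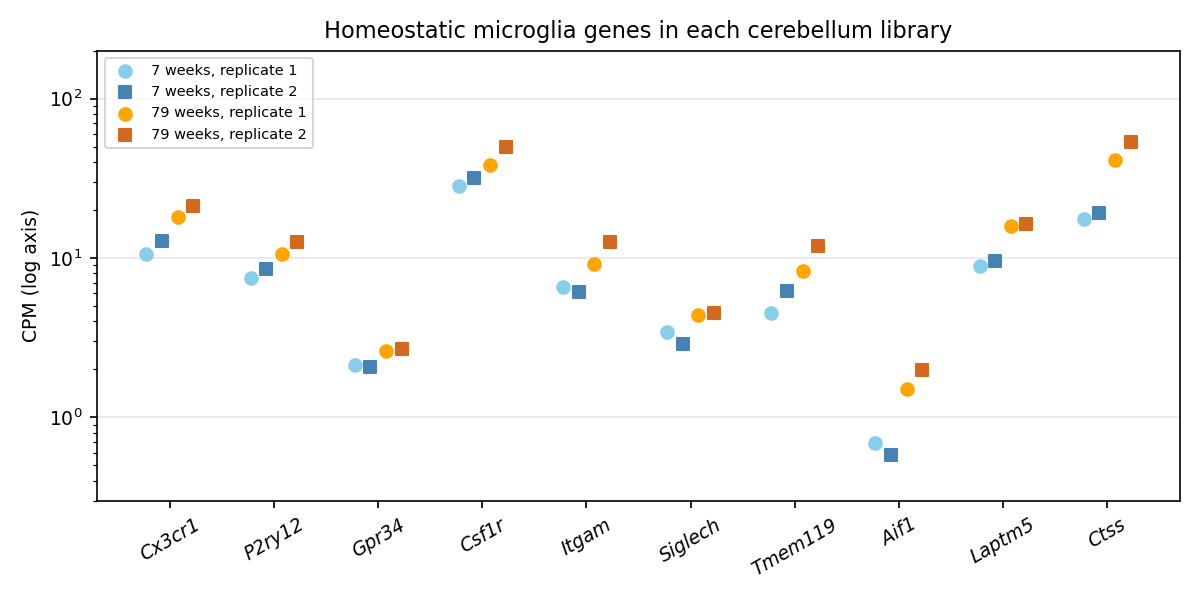
Level of each of the 10 homeostatic microglia genes in CPM (vertical log axis) in each of the 4 cerebellum libraries, with 1 point per library. For each gene the 79-week points lie above the 7-week points, and the 79-week replicate 2 lies above replicate 1. Heights of different genes are not comparable, because CPM is not corrected for gene length.

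These calls rested on the small number of libraries. With 7-week replicate 1 left out, edgeR called 0 of the 10 genes (6 at an unadjusted p under 0.05) and 0 of all genes, and with 7-week replicate 2 left out it called 0 of the 10 (8 at an unadjusted p under 0.05). Without 79-week replicate 1 it called 8 and without 79-week replicate 2 it called 3, the former fit being the one without the library high in choroid plexus markers. Of all genes tested, these 4 fits called 0%, 0.518%, 5.1% and 8.63% higher. With all libraries, 6 of the 10 genes were called by DESeq2, where 3.58% of all genes were called higher, 3 by limma-voom (3.52%), 7 by edgeR with robust dispersion estimates (5.32%), 8 without the low-count filter (6.88%), 5 with a replicate block (4.38%) and 7 with a crossed block (6.6%). Other scalings called 5 with RLE (4.19%), upper-quartile factors (4.34%) or TMM without the 10 most abundant genes (4.17%) and 7 with library size alone (5.89%), while a filter of 1 CPM gave 6 (4.89%) and edgeR's newer dispersion method 5 (4.1%). Each of the 10 genes kept a positive log2 fold change in all 21 fits that were made. DESeq2 called Ctss with each library left out in turn (adjusted p of at most 6.54e-05), in fits that called 0.501%, 1.07%, 0.908% and 2.14% of all genes higher, and otherwise only Csf1r, without 79-week replicate 1 (adjusted p = 0.0119).

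Promoter sequence is shown for 3 of the genes, and no link between sequence and change with age was tested. Ctss is the member with the smallest adjusted p, Itgam is a called member with a smaller rise, and P2ry12 was not called. Whether the changes of Itgam and P2ry12 differ was not tested. The promoter table from RefSeq (build GRCm38.p6) held 7 of the 10 genes and lacked Gpr34, Csf1r and Tmem119. The sequences below are the 250 bases before the annotated start, 5′ to 3′ on the gene's strand, in lower case, with capitals marking matches on either strand to GAGGAA or GGAAGT, which are short forms of the site bound by PU.1 and other ETS factors.
Ctss, chr3:95526536-95526785, plus strand: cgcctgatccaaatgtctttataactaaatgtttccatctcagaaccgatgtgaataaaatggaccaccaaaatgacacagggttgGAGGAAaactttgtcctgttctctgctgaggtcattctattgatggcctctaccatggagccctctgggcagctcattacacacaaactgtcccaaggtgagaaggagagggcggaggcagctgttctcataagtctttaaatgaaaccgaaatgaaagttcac
Itgam, chr7:128062390-128062639, plus strand: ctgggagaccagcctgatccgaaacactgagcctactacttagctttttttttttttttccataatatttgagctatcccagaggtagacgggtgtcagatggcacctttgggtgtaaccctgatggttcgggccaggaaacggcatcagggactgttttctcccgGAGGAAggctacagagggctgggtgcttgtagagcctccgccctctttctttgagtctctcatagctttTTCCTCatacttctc
P2ry12, chr3:59262986-59263235, minus strand: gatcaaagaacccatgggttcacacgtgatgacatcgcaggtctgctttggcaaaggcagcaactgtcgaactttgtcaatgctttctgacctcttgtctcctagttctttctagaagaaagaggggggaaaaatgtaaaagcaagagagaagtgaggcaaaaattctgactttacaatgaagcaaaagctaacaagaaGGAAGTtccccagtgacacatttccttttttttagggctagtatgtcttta

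In Ctss GAGGAA began 164 bases before the start. Itgam held GAGGAA 84 bases before the start and its reverse complement 15 bases before it, and P2ry12 held GGAAGT 51 bases before the start. Of the 7 promoters, GAGGAA was in those of Aif1, Ctss, Itgam and Laptm5, and GGAAGT in those of Laptm5, P2ry12 and Siglech. Among all 32851 promoters of the table, 23.3% held GAGGAA and 19.7% held GGAAGT in the same window, and 36.7% held at least 1 of them, which can overlap by the letters GGAA. A match is a run of letters and not a shown binding site. The motifs were chosen with the expression values known.

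Among the receptors by which microglia sense other cells, Cx3cr1, the receptor for the neuronal chemokine fractalkine, stood at 10.7 and 12.7 CPM at 7 weeks and at 18.2 and 21.1 CPM at 79 weeks. The ages did not overlap, and the rise was 1.67-fold (log2 fold change 0.74, SE 0.13, adjusted p = 0.0188 in edgeR's quasi-likelihood test). Its ligand Cx3cl1, which neurons make, was at 54.8 and 58.0 CPM and then 65.4 and 79.1 CPM. It did not pass the test in the main edgeR fit (adjusted p = 0.0637), whereas DESeq2 (adjusted p = 0.0355) called it higher. So did edgeR with a replicate block (adjusted p = 0.0316), a crossed block (0.0366), library size scaling (0.0389), robust dispersion estimates (0.0407) or no low-count filter (0.000104). The other settings with all libraries did not call Cx3cl1. Csf1r, the receptor for the growth factors CSF1 and IL-34, was at 28.4 and 31.9 CPM at 7 weeks and at 38.1 and 49.5 CPM at 79 weeks. The rise was 1.45-fold, or 0.54 on the log2 scale (SE 0.13, adjusted p = 0.0472), and the 79-week libraries differed from each other by more than the 7-week libraries did. Its call was lost with limma-voom (adjusted p = 0.0601). In edgeR with all libraries and the low-count filter, neither ligand gene was called. Csf1 was at 23.4 and 26.7 CPM and then 32.6 and 29.4 CPM (adjusted p = 0.111), without overlap. edgeR without the low-count filter called Csf1 higher (adjusted p = 0.0313). Il34 was at 3.61 and 6.27 CPM and then 5.33 and 4.41 CPM (adjusted p = 0.953), where the ages overlapped.

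P2ry12, the ADP receptor that draws microglial processes toward damaged cells, was at 7.54 and 8.59 CPM at 7 weeks and at 10.7 and 12.5 CPM at 79 weeks. Its log2 fold change of 0.52 (SE 0.16) missed the threshold in edgeR (adjusted p = 0.0817), though every 79-week value exceeded every 7-week value. Gpr34, a receptor for lysophosphatidylserine, had the smallest change of the 10 genes. It stood at 2.12 and 2.08 CPM and then at 2.59 and 2.68 CPM, with 34 to 62 reads per library, and its log2 fold change of 0.33 had an SE of 0.26 (adjusted p = 0.47). In RefSeq's annotation P2ry12 lies within the span of Med12l, which runs on the opposite strand, and Gpr34 within that of Cask, a scaffold gene of neurons. Med12l was at 108 to 114 CPM in the 4 libraries (adjusted p = 0.547), and Cask went from 98.9 and 92.5 CPM to 73.5 and 73.0 CPM (log2 fold change -0.38, adjusted p = 0.0143). The strand setting of the counting is not given in the sources used here, so reads of P2ry12 and Med12l cannot be told apart by strand, and the part of the host genes in the counts of P2ry12 and Gpr34 was not tested.

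Among the adhesion and surface proteins, Itgam, the alpha chain of complement receptor 3, was at 6.60 and 6.13 CPM at 7 weeks and at 9.22 and 12.7 CPM at 79 weeks. It rose 1.72-fold (log2 fold change 0.79, SE 0.19), with an adjusted p of 0.0493 in edgeR that was 0.0616 in limma-voom and 0.052 with the replicate number as a block. Itgb2, which encodes the beta chain that pairs with Itgam, rose from 1.62 and 1.79 CPM to 5.08 and 6.09 CPM, a 3.27-fold rise (adjusted p = 0.0109). Siglech, a lectin that signals through the adaptor encoded by Tyrobp, was at 3.43 and 2.90 CPM and then at 4.40 and 4.54 CPM and did not pass the test (log2 fold change 0.50, SE 0.23, adjusted p = 0.206). Tyrobp itself was called at the edge of the threshold, at 4.24 and 3.47 CPM and then 6.42 and 7.30 CPM (adjusted p = 0.04998). Tmem119, a transmembrane protein used to tell microglia from blood-derived macrophages, was at 4.49 and 6.18 CPM at 7 weeks and at 8.29 and 11.97 CPM at 79 weeks. Its libraries differed within each age, and its log2 fold change of 0.92 (SE 0.24) missed the threshold in edgeR (adjusted p = 0.0577), whereas DESeq2 called it (adjusted p = 0.0281).

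Among the proteins inside the cell, Ctss, which encodes the lysosomal protease cathepsin S that trims the invariant chain for antigen presentation, was at 17.6 and 19.3 CPM at 7 weeks and at 41.0 and 53.7 CPM at 79 weeks. The lower 79-week library was more than 2 times the higher 7-week library, and the rise was 2.57-fold (log2 fold change 1.36, SE 0.14, adjusted p = 0.00408). Cystatin C, an inhibitor of cathepsins encoded by Cst3, also rose, from 189 and 203 CPM to 265 and 263 CPM (adjusted p = 0.00767). Laptm5, a lysosomal membrane protein of blood and microglial cells, was at 8.91 and 9.51 CPM and then at 15.9 and 16.2 CPM. The libraries of each age were close together, and the rise was 1.74-fold, or 0.80 on the log2 scale (SE 0.12, adjusted p = 0.0118). Aif1, whose product IBA1 is the usual histological stain for microglia, had the largest log2 fold change of the 10, at 1.47 (SE 0.37), from 0.685 and 0.579 CPM to 1.50 and 1.99 CPM. It rested on 11 and 12 reads at 7 weeks and 29 and 46 reads at 79 weeks, and was not called (adjusted p = 0.0532). Of the 12 other settings with all libraries, 5 called it (adjusted p from 0.00953 to 0.196 over the 12).

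**Figure D2:**
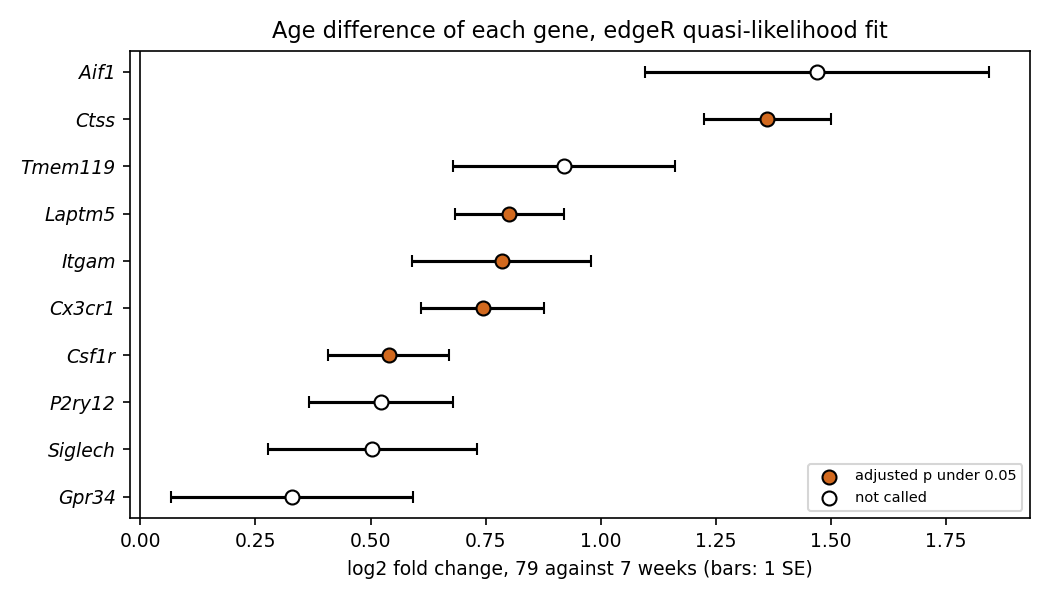
log2 fold change at 79 against 7 weeks for each gene (horizontal axis) with bars of 1 SE from edgeR's quasi-likelihood fit. Filled points passed an adjusted p of 0.05 over all tested genes. All 10 points lie to the right of 0, from 0.33 for Gpr34 to 1.47 for Aif1.

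Ratios within a library, which do not depend on the scaling between libraries, set the 10 genes beside each other. The ratio of Ctss to the geometric mean of the other 9 genes was 3.35 and 3.52 at 7 weeks and 5.05 and 5.52 at 79 weeks. The same ratio for Aif1 was 0.0912 and 0.0718 and then 0.128 and 0.142. Both ratios were higher in each 79-week library, by 0.62 and 0.74 on the log2 scale. In reads, Ctss made up 19.4% and 19.3% of the counts of the 10 genes at 7 weeks and 27.4% and 28.7% at 79 weeks, while the share of Csf1r was 31.4% and 31.9% and then 25.4% and 26.5%. The ratio of Csf1r to the other 9 was 5.71 and 6.16 at 7 weeks and 4.66 and 5.04 at 79 weeks.

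The ratios of Cx3cr1, Itgam, Laptm5 and Tmem119 overlapped between the ages. Those of P2ry12 (1.31 and 1.44, then 1.13 and 1.10), Gpr34 (0.319 and 0.296, then 0.235 and 0.197) and Siglech (0.545 and 0.429, then 0.423 and 0.355) were lower in each 79-week library. Since the ratios share their reference, a relative rise of Ctss and Aif1 lowers the others. With the median of the other 9 genes as reference, Ctss and Aif1 were again higher and Csf1r again lower without overlap, Tmem119 was higher, and P2ry12, Gpr34 and Siglech overlapped. An exact two-sided permutation test of 2 against 2 libraries cannot go below p = 0.333, so these ratios are a description.

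**Figure D3:**
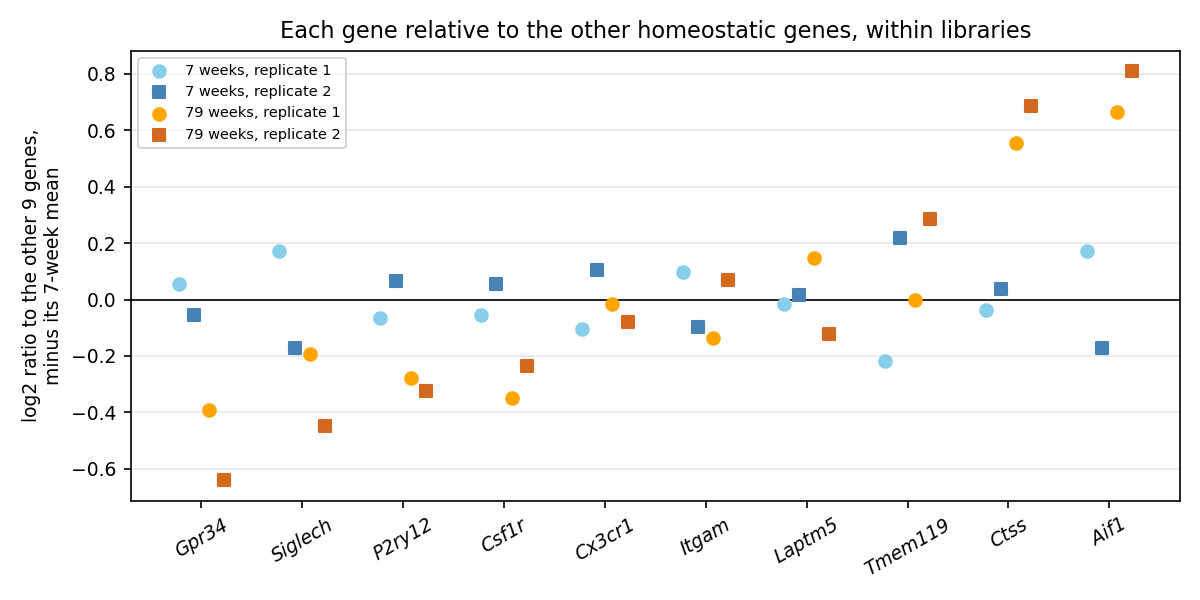
log2 ratio of each gene to the mean of the other 9 within each library, minus its 7-week mean (vertical axis), with genes ordered by their difference between ages. Ctss and Aif1 lie highest at 79 weeks, Gpr34 lies lowest, and the ages overlap for Cx3cr1, Itgam, Laptm5 and Tmem119.

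The replicate libraries of 79 weeks differed for these genes. All 10 were higher in replicate 2 than in replicate 1, with a median difference of 0.30 on the log2 scale, whereas at 7 weeks 6 were higher in replicate 2 and 4 in replicate 1. The same shares over all genes tested are not given here, so these counts only describe the 10 genes. The median gene stood 0.59 above its 7-week mean in 79-week replicate 1 and 0.84 above it in replicate 2. The choroid plexus markers ran the other way, summing to 5428 CPM in the former library and 41.7 CPM in the latter. The log2 fold changes of the 10 genes without replicate 1 were as large as or larger than with it, from 0.35 for Gpr34 to 1.65 for Aif1 and 1.54 for Ctss. Without replicate 2 all 10 were smaller, with Ctss at 1.15, Tmem119 at 0.62, Itgam at 0.53 and Csf1r at 0.33, and Csf1r and Itgam lost their calls (edgeR adjusted p = 0.0543 and 0.0912).

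Other genes of homeostatic microglia numbered 36, all tested, of which 12 rose, 0 fell and 24 did not pass the test. Their median log2 fold change was 0.66. Of all genes tested, 4.17% were called higher and 4.68% lower. The complement C1q chain genes C1qa, C1qc and C1qb, which microglia supply to the brain, rose 2.33-fold, 2.13-fold and 1.94-fold (adjusted p = 0.00417, 0.00493 and 0.0111). P2ry13, a purinergic receptor related to P2ry12, was at 2.43 and 3.09 CPM and then at 3.57 and 3.37 CPM (adjusted p = 0.456). Fcrls and Mertk, named after their values were seen, had lower values at 79 weeks without overlap but did not pass the test, although with no filter on low counts both were called lower (at an adjusted p of 0.0388 for Fcrls and 0.00793 for Mertk): Fcrls was at 6.17 and 4.34 CPM and then at 3.21 and 2.90 CPM (adjusted p = 0.101), and Mertk, a receptor for uptake of dying cells that astrocytes also express, was at 35.4 and 44.1 CPM and then at 31.7 and 31.8 CPM (adjusted p = 0.113).

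Of 12 transcription factor genes of microglia edgeR called 0 (7 at an unadjusted p under 0.05), against 4.17% higher and 4.68% lower over all genes tested. Their median log2 fold change was 0.49. DESeq2 called 1, Nfatc2, which was lower (adjusted p = 0.0486), and which stood at 49.7 and 44.9 CPM and then at 40.6 and 29.0 CPM. Bhlhe41, with the highest CPM of the 12, was at 46.3 and 61.9 CPM and then at 70.4 and 65.2 CPM (edgeR adjusted p = 0.159). In bulk RNA the cells that supplied the reads of Nfatc2 and Bhlhe41 cannot be told, so their values need not be those of microglia. Spi1, named as the source of PU.1 and after its values were seen, was at 1.50 and 0.531 CPM and then at 1.50 and 1.77 CPM (edgeR adjusted p = 0.379), with the 7-week libraries far apart. Of the 15 ligands, partner chains, adaptors and inhibitors of the 10 genes, Itgb2, Tyrobp, Cst3 and Gnai2 rose, 0 fell and 11 were not called. Gnai2 encodes an inhibitory G protein subunit used by chemokine and purinergic receptors, and rose from 149 and 158 CPM to 176 and 180 CPM (adjusted p = 0.046). The calls of Gnai2 and Tyrobp were lost with DESeq2 and with the replicate block, and that of Gnai2 also with limma-voom and with edgeR's newer dispersion method.

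Of 17 genes of the TGF-beta pathway 1 rose, 0 fell and 16 did not pass the test, and their median log2 fold change was 0.08. With 4.17% of all genes tested called higher, 1 call of 17 was close to that share. The gene called was Itgb5, an integrin beta chain, which went from 79.3 and 78.7 CPM to 93.9 and 96.4 CPM (log2 fold change 0.27, SE 0.06, adjusted p = 0.0304). Activated microglia genes had a median log2 fold change of 0.95 over the 19 tested of 26. Without 79-week replicate 2 that median was 0.60, beside 0.57 for the 10 homeostatic genes. It was 1.14, over 21 tested genes, beside 0.83 without 79-week replicate 1. Without 7-week replicate 1 it was 1.06 beside 0.67, and without 7-week replicate 2 it was 0.92 beside 0.79, each over 21 tested genes. The medians over 21 genes and over 19 genes are thus not of the same set. The difference between the lists was not tested. In the activated list 9 rose, 0 fell and 10 were not called. Its 26 genes summed to 1090 and 1095 CPM at 7 weeks, beside 90.4 and 99.8 CPM for the 10 homeostatic genes. Which cells supplied the RNA of the activated list was not tested. Ctsd, encoding a lysosomal protease, rose 1.35-fold (adjusted p = 0.00833), the galectin gene Lgals3 3.51-fold (adjusted p = 0.0118), the tetraspanin gene Cd9 1.39-fold (adjusted p = 0.0145) and Ctsz 1.71-fold (adjusted p = 0.0178).

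**Figure D4:**
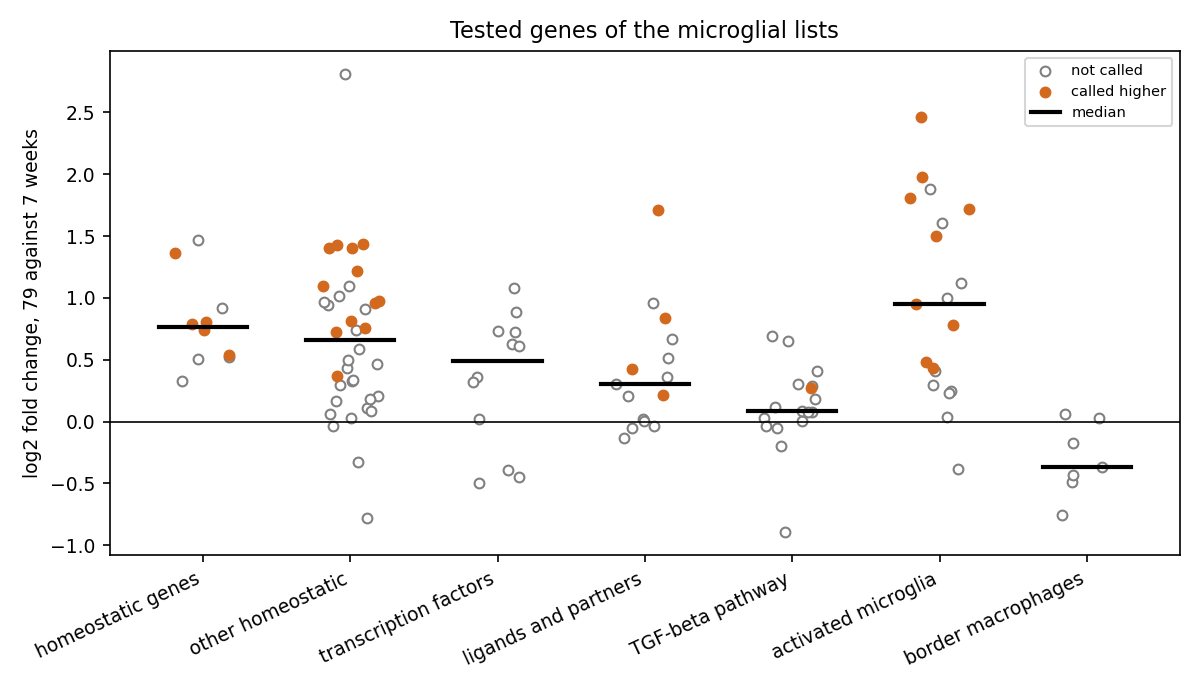
log2 fold change at 79 against 7 weeks (vertical axis) for every tested gene of 7 lists, with filled points called higher by edgeR and horizontal bars at the median. Medians run from 0.95 for activated microglia and 0.76 for the homeostatic genes to 0.08 for the TGF-beta pathway and -0.37 for border macrophages. No gene of these 7 lists was called lower.

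Several of the 10 genes, among them Csf1r, Cx3cr1, Aif1, Itgam, Laptm5 and Ctss, are also expressed by other macrophages and by blood myeloid cells, so markers of these cells were read in the same libraries. Markers of border macrophages, which line the vessels and meninges, had 0 of 7 tested genes called by edgeR in either direction. Over all genes tested it called 4.17% higher and 4.68% lower. A negative log2 fold change was found for 5 of the 7 border macrophage genes, where 51.7% of all genes tested had a positive one. Of the 7, 4 were lower at 79 weeks without overlap, 0 were higher and 3 overlapped. The share of all genes that were lower without overlap is not given here. The 12 border macrophage markers summed to 18.3 and 23.6 CPM at 7 weeks and 19.1 and 16.7 CPM at 79 weeks, with overlap between the ages. Stab1 was at 10.9 and 11.9 CPM and then at 10.2 and 10.1 CPM, and Mrc1, the mannose receptor gene, at 2.74 and 3.86 CPM and then at 2.54 and 2.20 CPM (adjusted p = 0.452 and 0.316). Of 12 monocyte and neutrophil markers, Fn1 was at 63.5 to 91.1 CPM with overlap between the ages, and the other 11, Ccr2, Ly6c2 and S100a8 included, did not exceed 0.241 CPM in any library, with Camp at 0 in all 4. The 12 lymphocyte markers summed to 0.869 to 1.34 CPM in a library, the highest CPM being that of Cd79a, at up to 0.562 CPM, with Gzma at 0 in all 4.

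Markers of some cells other than myeloid cells also differed between the ages. Relative to the 7-week mean, the median marker of oligodendrocytes stood at -0.87 and -0.43 on the log2(CPM + 0.5) scale in 79-week replicates 1 and 2, that of granule neurons at -0.23 and -0.33, and that of Purkinje cells at -0.21 and -0.23. CPM is relative to the scaled library size, so all these values are relative levels of RNA and not counts of cells. On the same scale the median homeostatic gene stood at 0.55 and 0.81, that of endothelial cells at 0.06 and 0.26 and that of astrocytes at -0.10 and 0.06. The part of these shifts in the rise of the 10 genes was not tested.

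**Figure D5:**
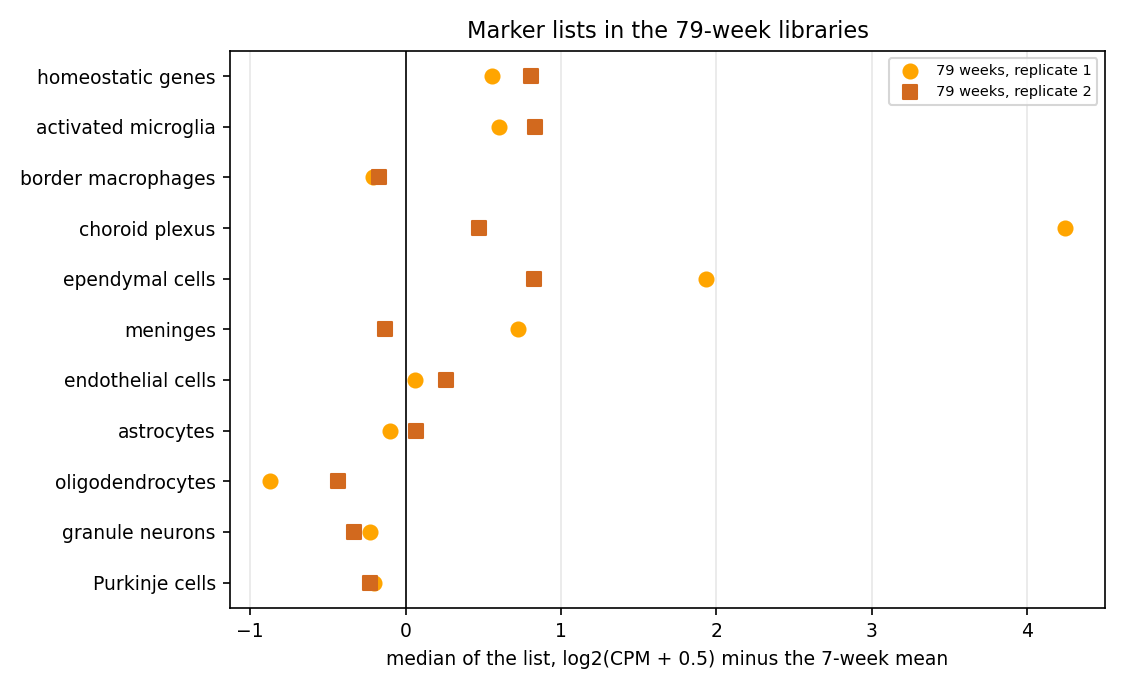
Median of each marker list in the 2 libraries of 79 weeks, as log2(CPM + 0.5) minus the 7-week mean (horizontal axis). Choroid plexus, ependymal and meningeal markers are higher in replicate 1 than in replicate 2, and the homeostatic genes are higher in replicate 2. The median border macrophage marker lies at -0.21 and -0.17, within the spread of the 7-week libraries (-0.21 and 0.21, not drawn). Of the 7 border macrophage genes tested, 4 were lower at 79 weeks without overlap.

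Outside the lists, the genes whose profile over the 4 libraries was most like the mean profile of the 10 genes were Asl, Stard5, Patj, Plcxd1 and Txnip, by the root mean square distance of centred log2(CPM + 0.5) values among 11245 genes of at least 5 CPM. Their distances were 0.0198, 0.0225, 0.0253, 0.0348 and 0.0353. Txnip, which encodes a binding partner of thioredoxin, was at 17.0 and 17.9 CPM at 7 weeks and at 27.4 and 30.6 CPM at 79 weeks. With 4 libraries such likeness is easily met and was not tested.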

How the data were processed

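Trizol was used to extract cerebellar RNA and the Universal Plus mRNA-Seq kit to prepare libraries, per the labels' protocols. The deposited files hold raw counts of reads for each Ensembl gene. The submitters' processing notes name cutadapt, STAR, HTSeq and build mm9 and give no versions. Neither the annotation release nor the strand setting of the counting is given in the sources used here. The HTSeq summary lines (18.7% to 20.4% of reads in no feature, 8.02% to 8.25% not unique) were taken off, and reads aligned to more than 1 place were not counted.

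Analyses ran in R 4.3.3. In edgeR 4.0.16, filterByExpr with a minimum count of 10 and a minimum total of 15 left 15292 genes, which were scaled by TMM (factors 0.9812 to 1.023). The ages were compared as 79 minus 7 weeks by edgeR's quasi-likelihood F test, without covariates, calling genes at a Benjamini-Hochberg adjusted p of 0.05 over all those tested. The SE is the size of the log2 fold change divided by the root of F. The common dispersion gave a biological coefficient of variation of 9.43%. CPM levels are on the TMM-scaled library sizes. The procedure was run on simulated data with the same dispersion for every gene and changes only in well-counted genes. That simulation does not cover genes of few reads such as Aif1.

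The members, lists and alternatives were chosen with earlier results of these data known. All 10 members are named, as are the 4 called genes with the smallest p in each other list (the 2 most abundant if it had none) and the 5 genes nearest in profile, except that some genes are not reported here. Alternatives were other scalings, filters, DESeq2 1.42.0, limma-voom (limma 3.58.1), robust and non-legacy edgeR fits, a replicate block and each library left out. Same-numbered libraries did not deviate together (correlation -0.106 over genes), so the numbers were not taken to pair them. Symbols came from a table of gene identifiers (32919 of 37991 matched).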

Additional observations from a re-analysis of the deposited data

How the results depend on the processing

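The median log2 fold change of the 10 homeostatic genes lay between 0.57 and 0.83 in all 21 fits, and library size scaling moved the median of all genes to 0.06. Leaving out 1 library at a time, with edgeR or DESeq2, the count of called genes ranged from 0 to 2425 over all genes and from 0 to 8 for the 10 genes. With edgeR it ranged from 0 to 15 for the other homeostatic genes, 0 to 4 for transcription factors, 0 to 6 for partners, 0 to 4 for the TGF-beta pathway and 0 to 13 for activated genes. With 1 library left at an age, that library is assumed to vary like the others. The counts of 0 came without 7-week replicate 1, where 0 genes passed in edgeR (2610 did at an unadjusted p under 0.05) and 235 in DESeq2, and for some lists without 7-week replicate 2, where edgeR called 175 genes. Those 2 settings ended the calls of Ctss (edgeR adjusted p = 0.1 and 0.0512) and of each other member, and the cause was not tested.

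Without the low-count filter 3051 genes were called, with 8 of the 10, 19 other homeostatic genes, 3 transcription factors, 8 partners, 6 TGF-beta genes and 18 activated genes, and more genes were tested (23285). Of these, Fcrls, Mertk, Nfatc2, Ltbp1 and Ski were called lower. The robust fit also called Ltbp1 lower. limma-voom called 3 of the 10. DESeq2, the robust fit and the replicate block each called 1 transcription factor (Nfatc2 with DESeq2 and with the block), and the TGF-beta pathway had 2 calls with library size scaling, 3 with the robust fit and 2 with the replicate block. With the replicate number as a block edgeR called 1396 genes and 5 of the 10, with Tmem119 (adjusted p = 0.024) in place of Itgam. DESeq2 called 421 genes when replicate 2 of 7 weeks was left out, and 379 and 654 when replicates 1 and 2 of 79 weeks were. The DESeq2 fits with a library left out, the edgeR fit with the newer dispersion method and the crossed pairing were added after the data were seen, and the last called 2014 genes and 7 of the 10. With all libraries, Cx3cr1, Laptm5 and Ctss were called in each of the 12 other settings, and Gpr34 and Siglech in 0. Aif1, at 11 to 46 reads per library, was called in 5 of these 12.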
